A study of Mus musculus with 9 samples.

Results

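The microRNA genes Mir21a, Mir29a, Mir29b-1, Mir143, Mir145a, Mir199a-2 and Mir214, which are known from smooth muscle and from fibrosis, were examined for 2 histone marks in primary oviductal muscle cells. They are 7 of the 2202 microRNA genes annotated by GENCODE. They form 4 loci, since the last 6 of them lie in pairs, and each locus was taken with 50 kb either side of its precursors. Every peak overlapping these windows was kept, which gave 384 of the 848955 peaks in 8 peak lists. The members were selected on earlier results of the same lists, in which the H3K27ac domains at Mir21a and at Mir29a ranked among those with the most summed signal, so all values below are a description and no test was made. The cells were from WT mice of 8-12 weeks on Day 2 of pregnancy, and the 9 samples were 3 for H3K27ac, 3 for H3K4me1 and 3 for IgG. They were digested from whole oviduct, filtered and plated for some hours with no sort, so other cells of the oviduct could remain. In ChIC-seq, MNase is tethered to chromatin through protein A and the antibody, and the DNA it releases is sequenced. Each mark had 3 replicate lists and 1 pooled list, and IgG served as the control of the calls. Nothing in the labels ties a replicate to an animal or a culture, so the spread may be technical.

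A microRNA is cut from a longer primary transcript by Drosha with Dgcr8, leaving a hairpin precursor that Dicer1 trims to the mature strand loaded on an Argonaute protein. The start of the primary transcript can therefore lie far from the hairpin. H3K27ac marks active promoters and enhancers, whereas H3K4me1 marks enhancers and the flanks of promoters and is usually low at the start base itself. In mesenchymal tissues miR-21 is known as induced by injury and growth factors, miR-29 as a repressor of collagen and other matrix genes, miR-143 and miR-145 as promoting the contractile state of smooth muscle, and miR-199a and miR-214 as products of a shared transcript of mesenchyme.

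The mature strands show which members share a seed, the bases 2 to 8 that pair with targets, and they are printed 5′ to 3′ with the seed in capitals. Sequences are from RefSeq on GRCm38.p6 and are printed for 5 of the 7 members. The remaining members were left out of this comparison, which says nothing of whether RefSeq holds them.
miR-21a-5p: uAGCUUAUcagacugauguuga
miR-29a-3p: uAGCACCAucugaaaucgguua
miR-29b-3p: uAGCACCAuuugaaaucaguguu
miR-199a-5p: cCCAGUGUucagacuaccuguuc
miR-199a-3p: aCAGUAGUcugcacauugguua
miR-214-3p: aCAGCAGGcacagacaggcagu
Only Mir29a and Mir29b-1 shared a seed among these, and their strands were identical at 18 of the 22 positions compared. The same seed is carried by Mir29b-2 and Mir29c at another locus. The seed of miR-199a-3p is shared with Mir199a-1 and Mir199b, whereas that of miR-214-3p is shared with Mir761 and that of miR-21a-5p with Mir21c. The genes named here need not be all that carry these seeds.

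The replicate lists held 93684 to 152889 peaks, called from 40551842 to 78891920 fragments against 3110985 to 3713369 IgG fragments, and H3K27ac replicate 1 alone was called against IgG replicate 1. No list held a peak below 4.03 times the mean coverage of the genome, so a base outside peaks is a base below the cutoff and not a base without the mark. The labelled cell type was examined by promoter peaks, within 1 kb of a protein-coding start. H3K27ac was there in all 3 replicates for 3 of 8 smooth muscle markers (Acta2, Des and Smtn) and for 5 of 5 fibroblast markers, beside 45.9% of all protein-coding genes. Myh11, a myosin of differentiated smooth muscle, had an H3K27ac promoter peak in 0 of 3 lists. The count was 0 of 6 for epithelium, 0 of 3 for endothelium and 1 of 4 for blood (Ptprc). Of the endothelial markers Cdh5 had H3K27ac in 2 of 3 lists, and Pecam1 and Kdr in 1 of 3. H3K4me1 was there in all 3 replicates for 4 of 8 smooth muscle markers, the same 3 and Tagln, and for 4 of 5 fibroblast markers, beside 27.9% of all protein-coding genes. It was also there for 1 of 6 epithelial markers, the keratin gene Krt8, and in 2 of 3 lists for Ovgp1, the oviductal glycoprotein gene. For endothelium the H3K4me1 count was 0 of 3, with Kdr in 2 of 3 lists, and for blood 0 of 4.

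All 4 loci lay in chromatin with long stretches of both marks. Over the windows together, H3K27ac peaks covered 33.4%, 37.3% and 31.8% of the sequence in the 3 replicates, and H3K4me1 peaks covered 32.8%, 32.2% and 27.5%. This was 6.30 to 9.92 times the share of the genome covered by the same lists for H3K27ac and at least 5.78 times for H3K4me1. Among single members with 50 kb either side, the mean covered share ranged from 17.2% to 60.8% for H3K27ac, with a median of 29.1%, beside a median of 3.49% over all 2202 microRNA genes. For H3K4me1 it ranged from 20.9% to 40.7%, with a median of 28.0% beside 3.22%.

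**Figure D1:**
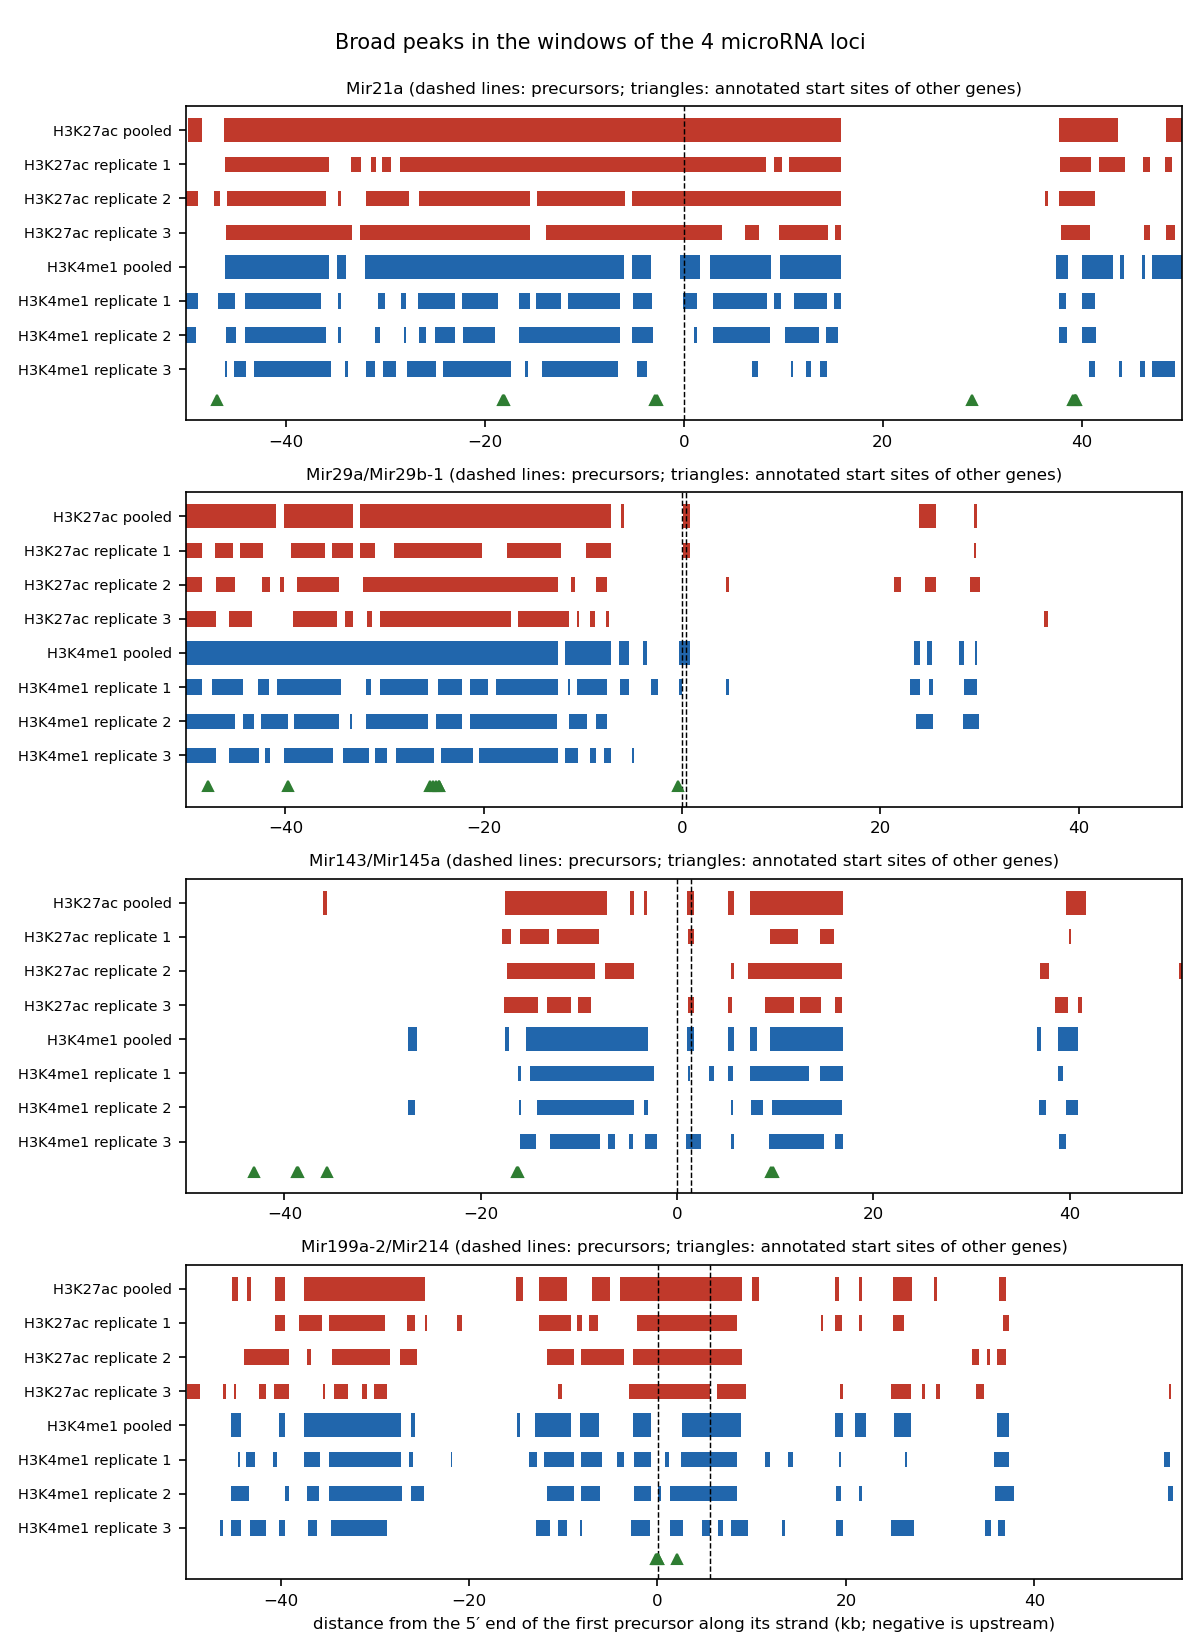
Broad peaks in the windows of the 4 loci. The horizontal axis is the distance in kb from the 5′ end of the first precursor along its strand, with negative values upstream, and each row is a peak list (red, H3K27ac; blue, H3K4me1; tall bars, pooled lists). Dashed lines are precursors and triangles are annotated start sites of other genes. The pooled H3K27ac peak across Mir21a is 61975 bp long, and the peaks near Mir29a and Mir29b-1 lie almost wholly upstream.

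Mir21a had the widest H3K27ac cover. Its window lay inside H3K27ac peaks by 62.5%, 61.3% and 58.6% in the 3 replicates, and inside H3K4me1 peaks by 43.8%, 42.1% and 36.1%. The H3K27ac lists were all above the H3K4me1 lists, with means of 60.8% ± 1.99 and 40.7% ± 4.04 (SD, n = 3 each). Such a separation in favour of H3K27ac was found in 15.8% of all microRNA windows, and the opposite separation in 12.8%. It held for 1 of the 7 members. Among lists called against IgG replicate 2 the difference was 18.3 percentage points, and against IgG replicate 3 it was 22.5. Its size depended on the choice of list and window, with 9.31 points in the pooled lists, 30.4 with 20 kb and 14.8 with 100 kb either side. By mean H3K27ac cover the Mir21a window ranked 1 of 2202, and by H3K4me1 cover it ranked 23. The members were chosen with the H3K27ac signal of these lists known, so the H3K27ac rank partly restates that choice.

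**Figure D2:**
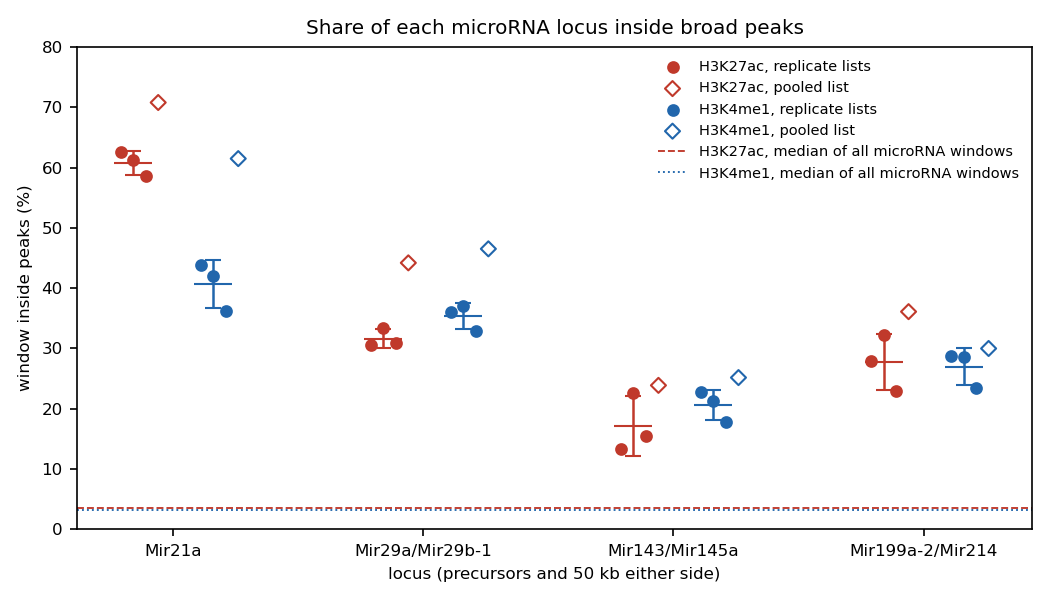
Share of each locus window inside peaks, in percent. Filled points are the 3 replicate lists of a mark with their mean and SD, open diamonds are pooled lists, and the horizontal lines are the medians over all microRNA windows. The marks separate at Mir21a, where the H3K27ac points lie between 58.6% and 62.5%, and overlap at the other loci.

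At the Mir29a/Mir29b-1 locus the H3K27ac shares were 30.5%, 33.4% and 30.9%, and the H3K4me1 shares were 36.1%, 37.1% and 32.9%. The lists of both marks overlapped, although H3K27ac was below H3K4me1 in each same-numbered pair. The means were 31.6% ± 1.57 and 35.3% ± 2.21 (SD, n = 3), and H3K27ac minus H3K4me1 was -3.18 and -1.98 percentage points among lists called against IgG replicates 2 and 3. The direction turned to 3.12 points when only peaks with −log10 p of at least 1.3 were kept, and the ratio of H3K27ac to H3K4me1 went from 0.894 to 1.11 when each list was divided by its share of the genome. At the Mir199a-2/Mir214 locus the H3K27ac shares were 27.9%, 32.2% and 22.9% and the H3K4me1 shares were 28.8%, 28.6% and 23.4%. There the marks overlapped as well, with means of 27.7% ± 4.64 and 26.9% ± 3.07, and the difference within these IgG libraries was 3.49 and -0.463 points. The Mir143/Mir145a locus was the least covered. Its H3K27ac shares were 13.2%, 22.6% and 15.5% and its H3K4me1 shares were 22.7%, 21.3% and 17.8%, with means of 17.1% ± 4.92 and 20.6% ± 2.54. The lists overlapped, and the difference within the IgG libraries was 0.617 and -2.30 points. With 3 lists against 3, an exact permutation test could not have gone below p = 0.1 at any locus.

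Mir21a lies at chr11:86584067-86584158 (GRCm38, minus strand), within an untranslated part of an exon of the full-length Vmp1 transcript. Vmp1, the host, encodes a membrane protein of autophagy and runs on the same strand. The precursor was inside an H3K27ac peak in all 3 replicates, with lengths of 36800, 20970 and 17682 bp. These peaks ranked 1, 11 and 12 by length in their lists. Their coverage was at least 16.3 times the genome mean, and the fold enrichment over local background was 2.51, 2.54 and 2.25, at percentiles 99.5, 99.6 and 97.4 of the lists. In the pooled list they were joined in a peak at chr11:86568356-86630330. At 61975 bp it was the longest of the 64843 pooled H3K27ac peaks, with a fold enrichment of 2.77. Length adds to summed signal, so this rank is not independent of the choice of members.

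H3K4me1 was broken where H3K27ac was continuous. The Mir21a precursor was inside an H3K4me1 peak in replicate 1 only, of 1379 bp. In replicate 2 the nearest peak lay 971 bp downstream and in replicate 3 it lay 3725 bp upstream. The pooled H3K4me1 list had a 2087 bp peak on the precursor at chr11:86582486-86584572, a gap of 2845 bp, and then its nearest upstream promoter-like peak at chr11:86587418-86589321 with a fold enrichment of 2.29. Promoter-like means within 1 kb of an annotated start site of a gene that is no microRNA, and all other peaks were called distal. Inside that gap lie the starts of a pair of short Vmp1 transcripts, 2723 and 2836 bp upstream of the precursor. Both start bases were inside H3K27ac peaks in 3 of 3 replicates and inside H3K4me1 peaks in 0 of 3. The H3K4me1 gap around these starts was 3085, 4162 and 10547 bp long in the replicates.

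Farther upstream, the starts of another pair of Vmp1 transcripts lay 18105 and 18137 bp away and were inside H3K27ac peaks in 3 of 3 lists and H3K4me1 peaks in 1 of 3. The full-length Vmp1 start lies beyond the window. It was also on an H3K27ac peak in each replicate, of 4334, 5018 and 2456 bp. Upstream of the precursor H3K27ac covered 82.6%, 83.2% and 87.3% of 50 kb and H3K4me1 60.8%, 58.6% and 60.5%. Downstream the cover was 37.2% ± 6.49 and 21.4% ± 8.33 (SD, n = 3). The longest pooled distal H3K4me1 peak was downstream, at chr11:86568371-86574455, with 6085 bp and a fold enrichment of 2.05, and it was also the distal peak of highest enrichment there. The only distal pooled H3K27ac peak, of 1349 bp at chr11:86632600-86633948, lay near the upstream end of the window with a fold enrichment of 1.71. The H3K4me1 peak was overlapped by a peak of its mark in 3 of 3 replicates and the H3K27ac peak in 1 of 3.

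Of the other genes in that window, Tubd1, a tubulin gene, and Rps6kb1, the gene of S6 kinase, start head to head, 39167 and 39353 bp downstream of Mir21a. Their shared start region was inside an H3K27ac peak of 3069, 3639 and 2948 bp in the replicates. H3K4me1 lay at its sides in 2 of 3 lists, with gaps at the Tubd1 start of 1551 and 1515 bp. The pseudogene Gm11478 had a peak of each mark within 1 kb in all 6 lists.

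Mir29a and Mir29b-1 lie 275 bp apart at chr6:31062660-31062747 and chr6:31063023-31063093, on the minus strand. Neither has a host gene in RefSeq. In GENCODE the lincRNA Gm27019 begins 402 bp upstream of Mir29b-1 and overlaps it by 2 bp. Little of either mark was found on the precursors. Mir29a was inside an H3K27ac peak in replicate 1 only, of 617 bp at 8.36 times the genome mean, and inside no H3K4me1 replicate peak. Mir29b-1 had 15 of its bases in an H3K4me1 peak of replicate 1 and was in no H3K27ac replicate peak. The pooled lists placed a 694 bp H3K27ac peak over Mir29a at chr6:31062304-31062997, which ended 26 bp short of Mir29b-1, and a 1104 bp H3K4me1 peak over both. Their fold enrichments were 1.68 and 1.77, at percentiles 14.4 and 29.0 of the pooled lists. Gm27019 had a peak of each mark within 1 kb of its start in 1 of 3 replicates.

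The marked chromatin of this locus lay upstream, over the lincRNA gene Lncpint. Lncpint is transcribed towards the microRNAs on the same strand and ends 19472 bp before Mir29b-1. H3K27ac covered 59.6%, 60.3% and 61.3% of the upstream 50 kb, and H3K4me1 covered 66.6% ± 1.07 (SD, n = 3). Downstream the values were 1.11%, 6.79% and 0.764% for H3K27ac and 6.34%, 6.65% and 0% for H3K4me1. The upstream and downstream values did not overlap for either mark. The same was true at Mir21a and Mir199a-2/Mir214, but not at Mir143/Mir145a. How often this occurs over all microRNA windows was not counted. The nearest upstream promoter-like pooled H3K27ac peak was 25350 bp long, at chr6:31070214-31095563, with a fold enrichment of 2.28, and was followed by promoter-like peaks of 6988 bp at chr6:31096261-31103248 and of 30944 bp at chr6:31104032-31134975, with fold enrichments of 1.95 and 2.51. The first and the last of these ranked 24 and 12 by length in the pooled list, which is likewise not independent of the choice of Mir29a. For H3K4me1 the nearest was a peak of 62053 bp at chr6:31075566-31137618, with a fold enrichment of 2.27, which ranked 3 of 105720.

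Inside these domains lie 5 Lncpint start sites, 24511 to 25378 bp upstream of Mir29b-1. All 5 had H3K27ac on the start base in 3 of 3 replicates and a peak of H3K4me1 within 1 kb in 3 of 3. H3K4me1 was on the start base in 0 to 2 of 3 lists. At the nearest of these starts the H3K27ac peaks were 8833, 19737 and 13280 bp long, and H3K4me1 had a gap of 660 bp there in replicate 3. Gm13833 and 5330406M23Rik, farther upstream, also had both marks within 1 kb in all replicates. The longest pooled distal H3K4me1 peak, of 4708 bp at chr6:31070213-31074920, lay almost wholly inside the pooled H3K27ac peak of 25350 bp and had a fold enrichment of 1.98. For H3K27ac the longest distal peak had 1668 bp, at chr6:31037498-31039165, and a fold enrichment of 1.72. It was overlapped by a peak in 1 of 3 replicates, and the 4708 bp H3K4me1 peak in 3 of 3. The distal peaks of highest enrichment were short, 289 bp for H3K27ac (chr6:31033302-31033590, 2.04) and 205 bp for H3K4me1 (chr6:31033294-31033498, 2.07), and lay at the same place downstream. Each was overlapped by a peak of its mark in 2 of 3 replicates.

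Mir199a-2 and Mir214 lie at chr1:162217814-162217923 and chr1:162223368-162223477, on the plus strand, 5444 bp apart. Both are in exons of the noncoding gene Dnm3os, which is their host, and both are in an intron of Dnm3 on the opposite strand, which encodes a dynamin. Dnm3 has no start in the window. This locus had the closest pairing of a start site and a precursor, since Dnm3os begins 191 bp upstream of Mir199a-2. An H3K27ac peak spanned the Dnm3os start and Mir199a-2 wholly in each replicate, with lengths of 10671, 11499 and 8607 bp. Its fold enrichments were 2.77, 2.59 and 2.45, at percentiles 99.9, 99.7 and 99.2 of the lists. The pooled peak at chr1:162213881-162226808 had 12928 bp and a fold enrichment of 3.46, the highest among the pooled peaks in the 4 windows.

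H3K4me1 differed between these neighbours. On Mir214 there was an H3K4me1 peak in 3 of 3 replicates, of 5954, 7187 and 904 bp, with fold enrichments of 1.78, 1.89 and 1.84. The peak of replicate 3 held 46 of the 110 bases of Mir214, and the H3K27ac peak of replicate 3 held 45. On Mir199a-2 there was none in replicates 1 and 3, and in replicate 2 a 283 bp peak touched 19 of its bases. No H3K4me1 replicate had a peak on the Dnm3os start base, and the gaps there were 1497, 736 and 2068 bp. Of the 5 annotated Dnm3os starts, the last lies 2054 bp downstream of the 5′ end of Mir199a-2 and was on an H3K4me1 peak in 2 of 3 replicates, and the other 4 in 0 of 3. In the pooled list the gap was 3227 bp, between a 1975 bp peak at chr1:162215186-162217160 and a 6322 bp peak at chr1:162220388-162226709 that holds Mir214. The upstream peak had a fold enrichment of 2.93, at percentile 99.97 of the pooled H3K4me1 list.

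The promoter of Dnm3os (chr1:162217373-162217672, plus strand, RefSeq, GRCm38.p6) is shown because it lies in that gap. All 300 bases were inside H3K27ac peaks in 3 of 3 replicates, and 0 were inside H3K4me1 peaks. Capitals mark the match to the CArG box, the element bound by serum response factor.
Dnm3os promoter: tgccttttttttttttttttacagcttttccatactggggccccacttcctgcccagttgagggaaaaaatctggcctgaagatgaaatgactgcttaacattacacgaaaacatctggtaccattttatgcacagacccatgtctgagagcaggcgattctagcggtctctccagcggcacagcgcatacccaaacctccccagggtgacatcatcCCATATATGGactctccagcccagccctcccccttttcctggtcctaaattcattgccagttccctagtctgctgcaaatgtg
The match lies 33 to 24 bases upstream of the start, and a CArG box on either strand was found in 1.63% of 32851 RefSeq promoters of this length. TGANTCA and TATAAA had no match in this window, beside 7.81% and 13.6% of the promoters, and CANNTG had 3 matches beside a share of 72.3% with at least 1. A match is a description of the letters and not of binding.

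Distal peaks were most numerous at this locus, with 13 in the pooled H3K27ac list and 11 in the pooled H3K4me1 list. The longest of both marks lay at the same place, inside Dnm3 and upstream of Dnm3os. For H3K27ac it was chr1:162180352-162193149, of 12798 bp with a fold enrichment of 2.05, and for H3K4me1 chr1:162180280-162190604, of 10325 bp with a fold enrichment of 2.37, which was also the highest among the distal H3K4me1 peaks. The distal H3K27ac peak of highest enrichment was chr1:162205264-162208211, of 2948 bp. Each of the 3 was overlapped by a peak in all 3 replicates of its mark. Cover upstream of the cluster was 35.0% ± 12.0 for H3K27ac and 36.5% ± 5.32 for H3K4me1, and downstream it was 12.2% ± 2.31 and 13.3% ± 0.940 (SD, n = 3).

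Mir145a and Mir143 lie at chr18:61647825-61647894 and chr18:61649196-61649258, on the minus strand, 1301 bp apart. Their host differs between annotations. In RefSeq the noncoding gene Carmn contains both precursors, whereas GENCODE ends Carmn 367 bp upstream of Mir143. Mir143 was in no peak of either mark in any of the 8 lists, the only member of which this was true. The nearest H3K27ac peak was 1021, 4409 and 1064 bp away in the replicates, and the nearest H3K4me1 peak 1053, 2950 and 876 bp away. Mir145a was wholly inside an H3K27ac peak in replicates 1 and 3, of 685 and 614 bp, and inside an H3K4me1 peak in replicate 3, of 1459 bp. The pooled peaks on Mir145a had 702 bp for H3K27ac (chr18:61647519-61648220) and 780 bp for H3K4me1 (chr18:61647491-61648270), with fold enrichments of 1.87 and 1.85. They were distal, and for H3K27ac this was the distal peak of highest enrichment in the window.

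Wider peaks stood on both sides of the pair. The Carmn start lies 16279 bp upstream of Mir143. The H3K27ac peak on or next to it had 2967, 8914 and 3481 bp, and in replicate 1 it ended 237 bp short of the start base. The pooled H3K27ac peak at chr18:61656401-61666839 had 10439 bp and a fold enrichment of 2.28. No H3K4me1 replicate had a peak on that start base, although each had a peak within 1 kb, and the pooled gap was 1738 bp. A second annotated Carmn start, 16232 bp upstream of Mir143, was on an H3K4me1 peak in 1 of 3 replicates. The nearest upstream promoter-like H3K4me1 peak, chr18:61652208-61664622, lay within Carmn and had 12415 bp and a fold enrichment of 2.10. Downstream, the lincRNA gene Bvht starts on the opposite strand 9716 bp from Mir143. Its start had both marks on the start base in 6 of 6 lists, the only start site in the 4 windows with H3K4me1 there in all replicates. The pooled peaks there had 9441 bp for H3K27ac and 7429 bp for H3K4me1. Il17b, which encodes a cytokine, had no peak within 1 kb of its starts in any replicate and a 366 bp H3K27ac peak in the pooled list, and Pcyox1l has no start in the window. The longest distal peaks were 2067 bp for H3K27ac (chr18:61607604-61609670) and 1962 bp for H3K4me1 (chr18:61608452-61610413), and the distal H3K4me1 peak of highest enrichment was chr18:61643504-61644028, of 525 bp and 1.89. The H3K27ac peak was overlapped by a peak in 2 of 3 replicates, and both H3K4me1 peaks in 3 of 3.

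**Figure D3:**
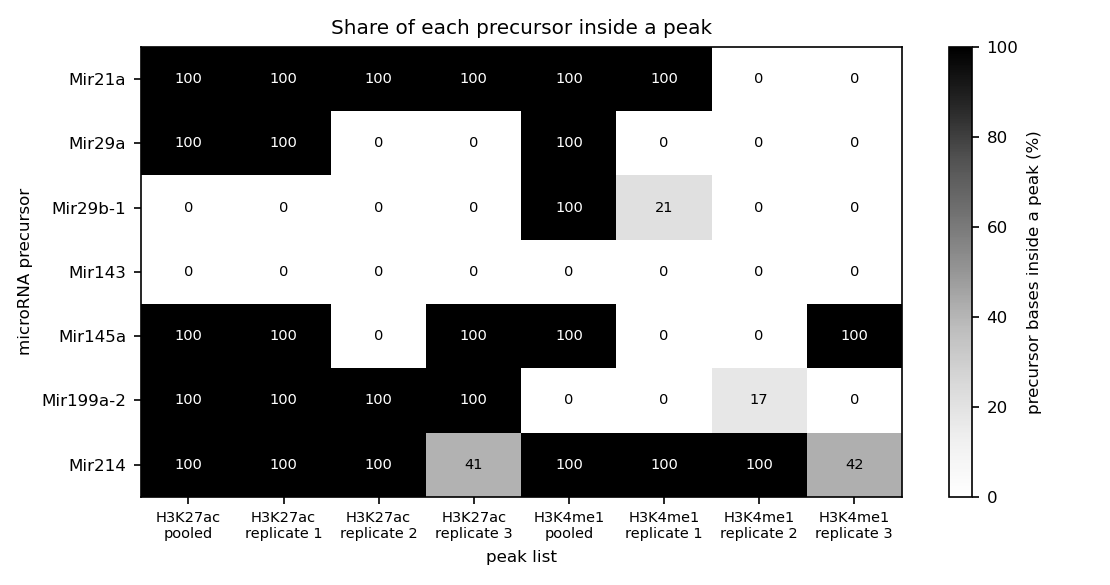
Share of the bases of each precursor inside a peak, in percent, for the 7 members (rows) in the 8 lists (columns). Black is 100% and white is 0%. Mir214 is touched in all 8 lists and Mir143 in 0 of 8.

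Across the members, H3K27ac was on the precursor in all 3 replicates for Mir21a, Mir199a-2 and Mir214, 3 of 7, beside 6.22% of all microRNA genes. H3K4me1 was there in all 3 replicates for Mir214 alone, 1 of 7, beside 3.45%. Mir214 was thus the only member with both marks in every replicate, beside 1.41% of all microRNA genes. Members of a pair share a window and for Mir199a-2 and Mir214 also a peak, so these are not 7 independent loci. In the pooled lists the counts were 5 for H3K27ac, beside 12.2% of all microRNA genes, 5 for H3K4me1, beside 10.1%, and 4 for both, beside 6.27%. Requiring −log10 p of at least 1.3 left 0 members with H3K4me1, and requiring the whole precursor left 0 as well.

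The windows held 31 annotated start sites. A peak within 1 kb in all 3 replicates was found at 25 for H3K27ac, beside 32.7% of all annotated start sites, and at 20 for H3K4me1, beside 19%. The same 20 had both marks, beside 15%. Several of these sites belong to the same gene and lie close together, so they repeat each other. At the start base, H3K27ac was present in all 3 replicates at 20 sites, beside 19.2% of all sites, and H3K4me1 at 1, beside 3.62%. At 11 of the 20 H3K4me1 was on the base in no replicate, which is 55% of them. Over all annotated start sites H3K27ac without H3K4me1 on the base was found at 10.3%, or 53.7% of those with H3K27ac there, so the share at these loci was close to that of the whole annotation. This count was chosen after the gaps had been seen. Taking 0.25 kb in place of 1 kb lowered the H3K4me1 count from 20 to 8.

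**Figure D4:**
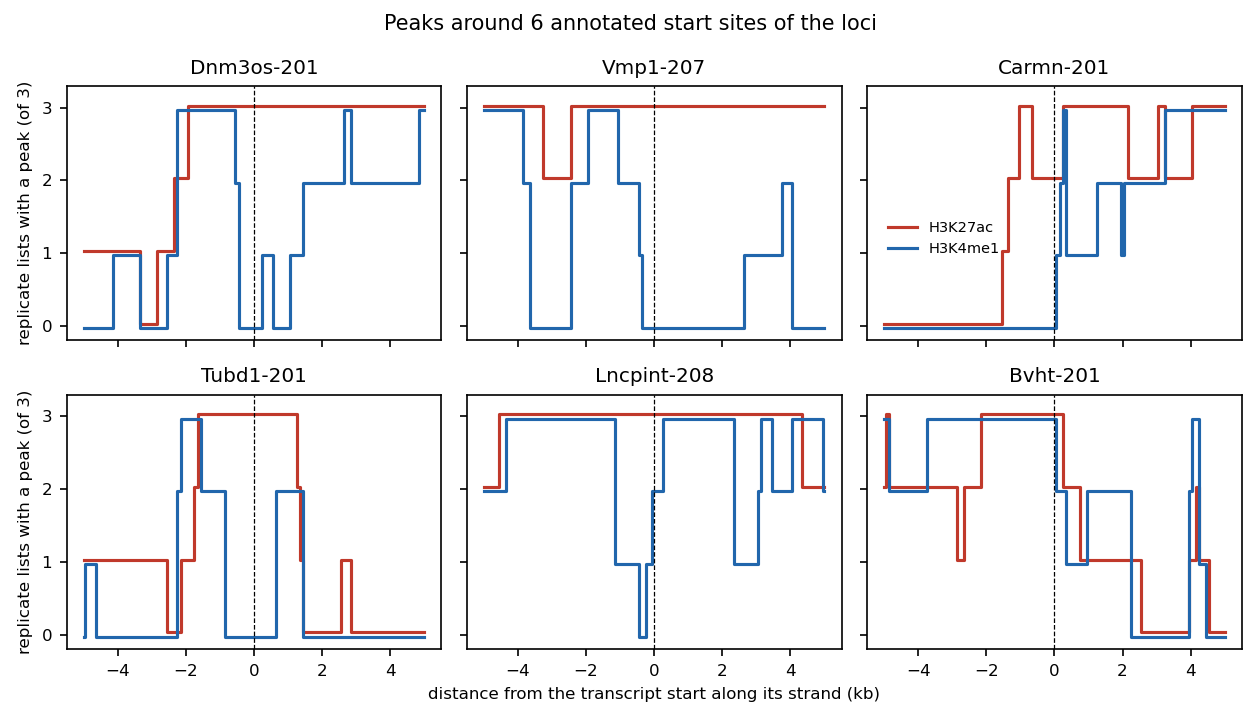
Peaks around 6 start sites of the loci. The horizontal axis is the distance from the start along the transcript in kb, the vertical axis is the number of replicate lists (of 3) with a peak at that position, and the lines are moved slightly apart for sight. At Dnm3os, the short Vmp1 transcript and Tubd1 H3K27ac is present in 3 of 3 at the start and H3K4me1 in 0 of 3, while at Bvht both are present in 3 of 3.

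The pooled lists held 22 distal H3K27ac peaks and 30 distal H3K4me1 peaks in the windows. Of the H3K27ac peaks 3 were overlapped by a peak in all 3 replicates, beside 29.9% of all pooled distal H3K27ac peaks, and 18 by a pooled H3K4me1 peak, beside 82.4%. Of the H3K4me1 peaks 12 were found in all 3 replicates, beside 41.9%, and 24 were overlapped by a pooled H3K27ac peak, beside 38.6%. Distal H3K27ac peaks had a median length of 709 bp, beside 679 bp over the whole list, and distal H3K4me1 peaks one of 842.5 bp, beside 945 bp. Long peaks that reach a start site were counted as promoter-like, so 69504 of the 70853 bp covered by pooled H3K27ac at Mir21a are not in the distal class. In the pooled lists 96.2% of the H3K4me1 sequence in the Mir21a window was also inside H3K27ac peaks, and 83.6% of the H3K27ac sequence was inside H3K4me1 peaks. Over bases covered in all 3 replicates these shares were 95.4% and 43.1% at Mir21a. At Mir143/Mir145a they were 77.7% and 81.9% in the pooled lists, and both were lower over bases covered in all 3 replicates, the first at 44.1%.

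Other microRNA genes were described in the same way, by lists of tissues in which they are known. H3K27ac on the precursor in all 3 replicates, found at 6.22% of all microRNA genes, was seen at none of 9 striated muscle, 8 epithelial, 5 blood cell, 1 endothelial, 1 liver or 7 neuronal microRNA genes. For H3K4me1 the count was 1 (Mir9-2, named after its value was seen), beside 3.45%. A peak in none of the 6 lists was found for 27 of the 31 genes and for 79.1% of all microRNA genes, so these lists lie close to the background. The median H3K27ac cover of the windows was 2.27% for striated muscle, 3.81% for epithelium, 7.17% for blood cells and 1.06% for neurons, beside 3.49% over all microRNA genes. Mir133a-1 and Mir1a-2 had the highest H3K27ac cover in these lists, at 20.7% and 19.8%, and were named for that. This was above the members Mir143 and Mir145a, at 17.2% and 17.3%. H3K4me1 covered 29.8% and 27.3% of the windows of Mir133a-1 and Mir1a-2, and Mir133a-1 had each mark on the precursor in 2 of 3 lists. Of the genes elsewhere that were found to share a seed with a member, 4 were listed, and Mir21c and Mir761 were not. The 4 had lower mean cover than the members. The replicate values of Mir29b-2 and Mir29c overlapped those of Mir143 and Mir145a, however. Mir29b-2 and Mir29c had 16.6% and 16.4% for H3K27ac, and Mir199a-1 and Mir199b had 5.45% and 9.77%, yet the latter pair had H3K27ac on the precursor in 3 of 3 replicates. In the list of 20 other microRNA genes of smooth muscle, fibroblasts or growth, H3K27ac was on the precursor in all replicates for 5, beside 6.22%, and both marks for 2, Mir23a and Mir27a, beside 1.41%. Mir23a and Mir27a lie side by side with Mir24-2, another of the 5, so these repeat each other. The median H3K27ac cover of the windows of the 20 genes was 20.9%, with a range of 1.65% to 39.3%, which overlaps that of the members. Mir100 at 39.3% and Mir125b-1 at 37.6%, named for their values, lay above every member but Mir21a. There 10 genes had no peak on the precursor in any of 6 lists, beside the 79.1%: Mir23b, Mir24-1, Mir27b, Mir221, Mir222, Mir26a-1, Mir26b, Mir34a, Mir10a and Mir140. Mir23b, Mir27b and Mir24-1 lie side by side, as do Mir221 and Mir222, so these are not separate loci. The Mir23b window nevertheless lay inside H3K4me1 peaks by 46.8% and inside H3K27ac peaks by 23.3%.

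**Figure D5:**
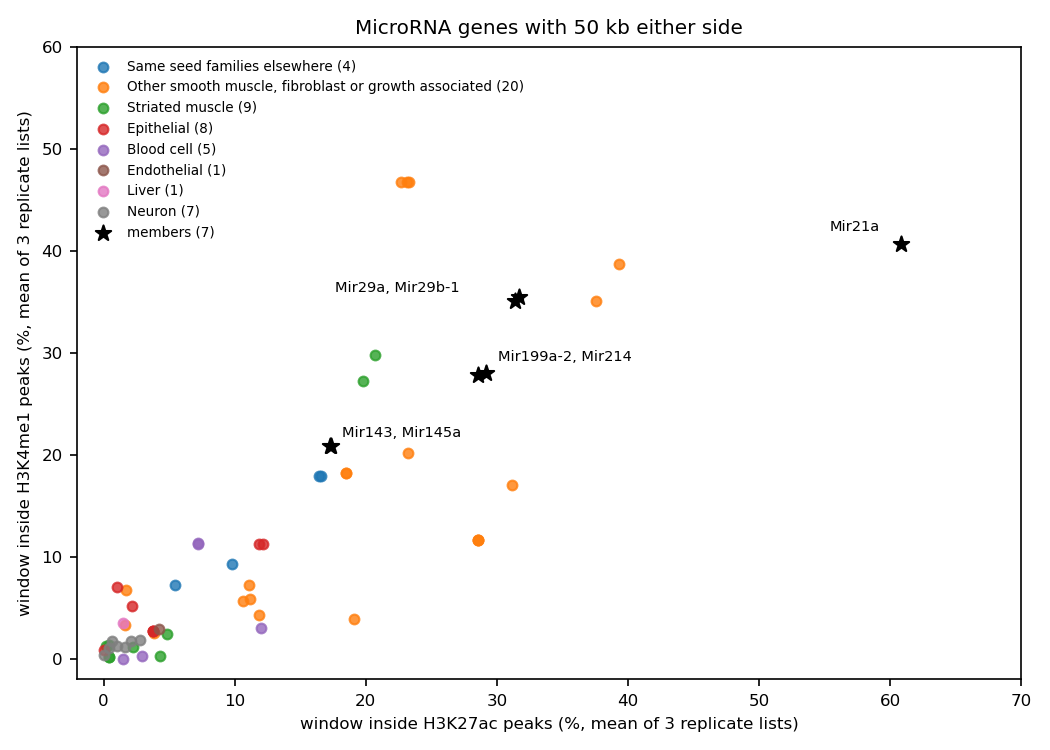
Mean share of the window inside peaks for the members (stars) and for other microRNA genes by list (points, with the number of genes in brackets). The horizontal axis is H3K27ac and the vertical axis H3K4me1, both in percent and as means of 3 replicate lists. Mir21a lies farthest right at 60.8%, and most genes of other tissues lie low on both axes. The medians over all microRNA genes, not drawn, are 3.49% for H3K27ac and 3.22% for H3K4me1.

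Over the 6 replicate lists, the microRNA genes whose covered shares were nearest to those of Mir21a, by Euclidean distance and outside 1 Mb of the members, were Gm26043 at 13.3 and Gm27514 at 16.1 percentage points. For Mir29a/Mir29b-1 they were Mir6386 (7.27) and Gm23802 (9.35), for Mir143/Mir145a Mir6933 (6.26) and Gm25303 (7.26), and for Mir199a-2/Mir214 Mir1898 (8.24) and Gm24270 (10.8).

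Genes of the microRNA pathway had H3K27ac promoter peaks in all 3 replicates in 9 of 10 cases, beside the 45.9% of all protein-coding genes, and H3K4me1 in 4 of 10, beside the 27.9%. These were Drosha, Dgcr8, Xpo5, Ran, Dicer1, Tarbp2, Ago1, Ago2 and Ago3, and Ago4 had H3K27ac in 1 of 3 lists. Both marks in all replicates were found at 4, beside 24.3%. Of 24 well-known targets of the members 23 had H3K27ac in all replicates and 17 had H3K4me1. All 8 listed targets of miR-21 were among the 23, including Pdcd4, Reck and Timp3. So were 7 of 8 targets of miR-29, including the collagen genes Col1a1, Col1a2 and Col3a1, and Eln, the elastin gene, had H3K27ac in 2 of 3 lists. The 5 targets of miR-143 and miR-145, including Klf4 and Klf5, had H3K27ac in all replicates, with H3K4me1 in 2 of 5, and the 3 targets of miR-199a and miR-214 (Cav1, Mtor and Ezh2) had both marks. Col1a1 and Col3a1 are also among the fibroblast markers. A peak at a target promoter says nothing of repression by the microRNA, which acts on the RNA.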

How the data were processed

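ChIC-seq of H3K27ac, H3K4me1 and IgG (3 samples each) was available as 6 replicate and 2 pooled peak lists. The labels name cutadapt, Bowtie2 and MACS2 and the build GRCm38.p5. Versions of the trimmer and aligner are not given in the sources used here, and the names of the alignments in the file headers speak of unique reads without duplicates. Per the file headers, the authors ran MACS 2.2.7.1 in broad mode on paired fragments, with p of 0.05 as the limit for strong regions and 0.1 for weak ones, and in each call MACS brought the bigger data set down to the size of the other. Pileup as deposited is hence a coverage signal at the depth of IgG. Fold enrichment as deposited is the ratio of pileup to local background with 1 added to each. At such low pileups this pulls the ratio towards 1, and less so in the pooled lists, where pileups are higher. Fold enrichments of pooled and replicate lists are hence not on the same scale. The deposited p-value column is given as −log10, and the q-value column was not used. These values were used only to describe or filter peaks. IgG replicate 1 was the control of H3K27ac replicate 1 alone, IgG replicate 3 that of replicate 3 of both marks, and IgG replicate 2 that of the other lists. The pooled lists used all 3 IgG libraries.

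Genes were from GENCODE M21, and the ends of all peaks lay within the GRCm38.p6 chromosomes. The covered share is the share of a window's bases inside peaks. A replicate list counted as positive with 1 base of overlap. Mean coverage was taken from the fragment number and length in the file headers over the effective genome size. The interval code was tested on simulated data, and 0 of 400 trials differed from a count base by base. Python 3.11.15 with numpy 2.4.6 was used. The members and all gene lists were chosen with earlier results of these data known. Genes were named if they are members, overlap a precursor, are protein-coding in a window or have promoter-like peaks in all replicates of a mark, as were related microRNA genes with peaks of both marks in all replicates or in none, and per pooled list the peak on the precursor, the nearest upstream promoter-like peak, the longest distal peak and the distal peak of highest enrichment. Alternatives were cutoffs on −log10 p and coverage, each replicate left out, other windows and distances, and the pooled lists.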

Additional observations from a re-analysis of the deposited data

How the results depend on the processing

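Of 132 recalculated values over 18 results 21 moved, that is by more than the combined replicate SD of both marks for a difference in covered share, past the range over pairs of lists for a ratio, or by over 1.5 times for a count. The other 111 stayed within these limits, which are wide at the loci where the marks overlap and allow a change of sign there. The difference at Mir21a kept its sign throughout. The H3K27ac minus H3K4me1 difference in covered share at Mir21a, 20.1 percentage points, became 30.4 with 20 kb and 14.8 with 100 kb either side and 9.31 with the pooled lists. It ranged from 17.9 to 21.7 with a replicate left out. At Mir29a/Mir29b-1 the difference of -3.74 became 3.12 with −log10 p of at least 1.3 and -6.85 with 100 kb, and ranged from -4.98 to -2.86 with a replicate left out. The ranges were -6.26 to -1.55 at Mir143/Mir145a and -1.50 to 3.14 at Mir199a-2/Mir214, where the direction rests on which list is left out. Within the limits, the difference at Mir143/Mir145a of -3.50 became -8.02 with 20 kb, -0.108 with 100 kb and 0.617 among lists called against IgG replicate 2, and that at Mir199a-2/Mir214 of 0.756 became 6.11 with the pooled lists, 4.12 with −log10 p of at least 1.3 and -3.01 with 100 kb. Dividing each list by its share of the genome, an alternative added after seeing the data, raised the H3K27ac to H3K4me1 ratio at all 4 loci, from 1.49 to 1.84 at Mir21a, 0.894 to 1.11 at Mir29a/Mir29b-1, 0.830 to 1.05 at Mir143/Mir145a and 1.03 to 1.26 at Mir199a-2/Mir214, so that H3K27ac was above H3K4me1 at each. Precursors with H3K27ac in all replicates were 5 in the pooled lists (3 in the replicates, 3 to 4 with a list left out). For H3K4me1 they were 5 in the pooled lists, and for both marks 4, against 1 in the replicates and 1 with any list left out. With −log10 p of at least 1.3, and with the whole precursor required, both counts were 0. Start sites with H3K27ac were 25 of 31, also with any list left out, and 4 of the 6 protein-coding ones. Those with H3K4me1 were 20 of 31 (20 to 25 with a list left out), 12 with −log10 p of at least 1.3, 8 within 0.25 kb and 0 of the 6 protein-coding ones. Distal H3K27ac peaks fell from 22 to 11 with −log10 p of at least 1.3. With that cutoff the share of all microRNA genes with H3K4me1 on the precursor fell from 3.45% to 0.817%, and with both marks from 1.41% to 0.272%. The causes were not tested. With a replicate block, taken as the mean of the differences between same-numbered lists with no test, the values stayed at 20.1, -3.74, -3.50 and 0.756 percentage points in the order above, since that mean equals the difference of means. The differences by number were 18.7, 19.2 and 22.5 at Mir21a, -5.55, -3.70 and -1.98 at Mir29a/Mir29b-1, -9.49, 1.3 and -2.30 at Mir143/Mir145a and -0.853, 3.58 and -0.463 at Mir199a-2/Mir214. The labels give these lists only a number in common, and over 2202 microRNA windows the deviations of same-numbered lists correlated at -0.114, 0.339 and 0.447, where numbers 2 and 3 also share an IgG library. The shallow IgG libraries limit how weak a peak can be called.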
